A study of Mus musculus with 39 samples.

Results

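The 9 mature B cell genes described here were followed across bulk RNA-seq libraries that had been made to study myeloid cells. They were Cd79a, Cd79b, Cd22, Cr2, Fcer2a, Pax5, Bank1, Blk and Ighd, taken by name from a gene-level table. They are 9 of its 53465 genes. Each name matched 1 entry, and all 9 passed the filter on low values described below. The table holds 39 mouse libraries in 13 groups of 3, and the 18 splenic libraries carry most of this account. The sorted cells are labelled as myeloid-derived suppressor cells, a class of myeloid cell that dampens immune responses, in sorts named G, M and G+M (GM here). APCmin/+ mice carry 1 mutant allele of Apc and develop intestinal tumours. They gave G, M and GM sorts of intestine, single cells of intestine in libraries titled StroInt, and G, M and GM sorts of spleen. BALB/c mice labelled as immune-deficient, with no further detail in the sources used here, gave G, M and GM sorts of spleen. C57BL/6 newborns of postnatal day 7 gave G and M sorts and single cells of bone marrow. A library of single cells is here 1 bulk profile of a tissue's dissociated cells. The sources used here give neither the background strain of the APCmin/+ mice, nor the ages of the mice other than the newborns, nor the surface markers of the sorts. Strain, genotype and immune status differ together between APCmin/+ and BALB/c spleens, and their effects cannot be told apart. Nothing in the labels tells if the 3 samples of a group were separate animals, so p-values measure only the spread between these samples, which may be technical.

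Mature B cells recognise antigen through a membrane immunoglobulin that signals through an attached pair of chains. Those chains, encoded by Cd79a and Cd79b, carry the phosphorylation motifs that start signalling in precursor and mature B cells alike. Ighd encodes the constant region of IgD, which naive mature B cells display beside IgM. Blk is a Src-family kinase that acts just below the receptor, and Bank1 is an adaptor scaffold of the same pathway. Cd22 is a sialic acid-binding receptor that restrains the signal. Cr2, which in mice encodes the complement receptors CD21 and CD35, lowers the threshold for activation. Fcer2a encodes CD23, the low-affinity receptor for IgE. Pax5 is the transcription factor that commits cells to the B lineage. Cr2 and Fcer2a come on late, as B cells mature in the spleen. Follicular B cells carry both, while marginal zone B cells carry much CD21 and little CD23. These genes are known chiefly from B cells, but Cr2 is also made by follicular dendritic cells, and in humans CD23 is known from monocytes and eosinophils as well.

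In the GENCODE M21 annotation of GRCm38 (mm10), Cr2 lies at chr1:195136811-195176716 on the minus strand and Fcer2a at chr8:3681737-3694175 on the minus strand. Cd79a lies at chr7:24897381-24902197 on the plus strand, with Cd22 on the minus strand of the same chromosome at chr7:30865402-30880342. Bank1 (chr3:136053363-136326066), Pax5 (chr4:44524757-44710487), Cd79b (chr11:106311341-106314762), Ighd (chr12:113406604-113416324) and Blk (chr14:63372836-63417037) are also on minus strands. Bank1, Pax5 and Cd22 overlap other annotated genes, mostly on the opposite strand. The library kit keeps the strand, but no source used here says whether the quantification did so. The promoters of Cd79a, Cr2 and Fcer2a are printed because these 3 genes came apart from each other in the splenic and marrow libraries described below. They come from RefSeq on GRCm38.p6, and 6 of the 9 genes were matched in the promoter table used here. Each runs from 250 bases before to 50 after a transcription start, 300 bases in all, at chr7:24897247-24897546 (plus), chr1:195176670-195176969 (minus) and chr8:3694125-3694424 (minus). Fcer2a has 3 such starts, and the one nearest the gene's start is shown. Capitals mark matches to motifs.
Cd79a: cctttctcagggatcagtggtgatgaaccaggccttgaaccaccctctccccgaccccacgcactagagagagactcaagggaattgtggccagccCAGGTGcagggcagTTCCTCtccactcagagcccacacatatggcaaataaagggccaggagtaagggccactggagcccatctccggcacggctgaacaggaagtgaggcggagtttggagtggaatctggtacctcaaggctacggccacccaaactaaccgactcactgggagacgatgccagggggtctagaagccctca
Cr2: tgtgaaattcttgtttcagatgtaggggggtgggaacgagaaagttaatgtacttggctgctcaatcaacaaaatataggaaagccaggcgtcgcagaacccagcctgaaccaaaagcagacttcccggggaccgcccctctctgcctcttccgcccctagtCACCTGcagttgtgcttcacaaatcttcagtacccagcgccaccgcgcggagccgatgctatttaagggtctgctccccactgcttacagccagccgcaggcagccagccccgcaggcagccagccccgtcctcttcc
Fcer2a: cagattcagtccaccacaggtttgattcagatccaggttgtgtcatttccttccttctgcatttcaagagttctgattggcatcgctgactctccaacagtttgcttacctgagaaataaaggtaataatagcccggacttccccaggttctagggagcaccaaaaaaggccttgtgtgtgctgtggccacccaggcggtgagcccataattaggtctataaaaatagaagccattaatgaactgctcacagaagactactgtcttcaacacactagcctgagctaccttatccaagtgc
Both strands were searched for 4 motifs bound by B lineage factors, and the matches found did not overlap each other. The ETS motif GAGGAA of the factors PU.1 and Spi-B was in the Cd79a window, as TTCCTC 140 bases before the start. It was in 28.27% of 32817 RefSeq promoters of the same length. The E-box CAGGTG was in the Cd79a window 154 bases before the start, and, as CACCTG, in the Cr2 window 88 bases before it. It was in 20.22% of all promoters. The EBF core CCCNNGGG, in 13.67% of promoters, and the octamer core ATTTGCA, in 4.025%, had no match in the 3 windows, and the Fcer2a window shown matched none of the 4. Of the 2 other Fcer2a starts, the window of 1 holds CAGGTG at 244 and at 99 bases before its start, so that the absence of a match depends on the start chosen. A match is a description of letters and not a binding site. The lack of an exact match, likewise, does not show that a factor has no site there.

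The 9 genes were abundant in splenic sorts labelled as myeloid cells, lower in marrow and near the bottom of the scale in most intestinal sorts. Values are TPM, a unit of which each library holds a fixed total, so that they are shares of the library scaled by transcript length, and levels can be compared between genes. Read depth is not kept by TPM and is unknown, so no counting interval is given. Libraries had 21551 to 24910 genes above 0, and no pair of libraries held identical values. Together the 9 genes held 0.166% to 0.539% of all TPM in the APCmin/+ splenic libraries and 0.331% to 0.678% in the BALB/c splenic libraries. The 12 T cell genes summed to between 162 and 675 TPM over the 18 splenic libraries, so that T and B cell transcripts were both measured in mice labelled as immune-deficient. In bulk RNA, fewer cells of a type and less RNA per cell cannot be told apart.

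Cd79a, the first signalling chain of the receptor, had the highest mean of the 9 genes in every group except the BALB/c G sort, where Ighd did. In the APCmin/+ spleen Cd79a had 1065, 505 and 775 TPM in the G libraries, 906, 367 and 426 in the M libraries, and 815, 645 and 976 in the GM libraries. In the BALB/c spleen it had 1149.7, 1145 and 1054 TPM in the G libraries, 810.1, 936 and 653 in the M libraries, and 1386, 1523 and 1024 in the GM libraries. The APCmin/+ libraries spread more widely, and 4 of them, M libraries 2 and 3, G library 2 and GM library 2, lay below all BALB/c libraries. Marrow came next, where G libraries had 475, 525 and 470.2 TPM, M libraries 68.4, 81.2 and 57.1, and libraries of single cells 215, 259 and 228. In the APCmin/+ intestine G libraries had 9.13, 20.3 and 32.2 TPM of Cd79a, M libraries 54.6, 66.5 and 101, GM libraries 6.97, 17.1 and 20.6, and libraries of single cells 23.4, 76.8 and 76.7. By mean, Cd79a ran from the BALB/c GM sort (1311 ± 258 TPM, SD, n = 3) through the other splenic groups to the marrow G sort, with the intestinal GM sort last (14.9 ± 7.05). Neighbours in this order overlapped in every case except below the BALB/c G sort, the marrow G sort and marrow single cells.

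**Figure D1:**
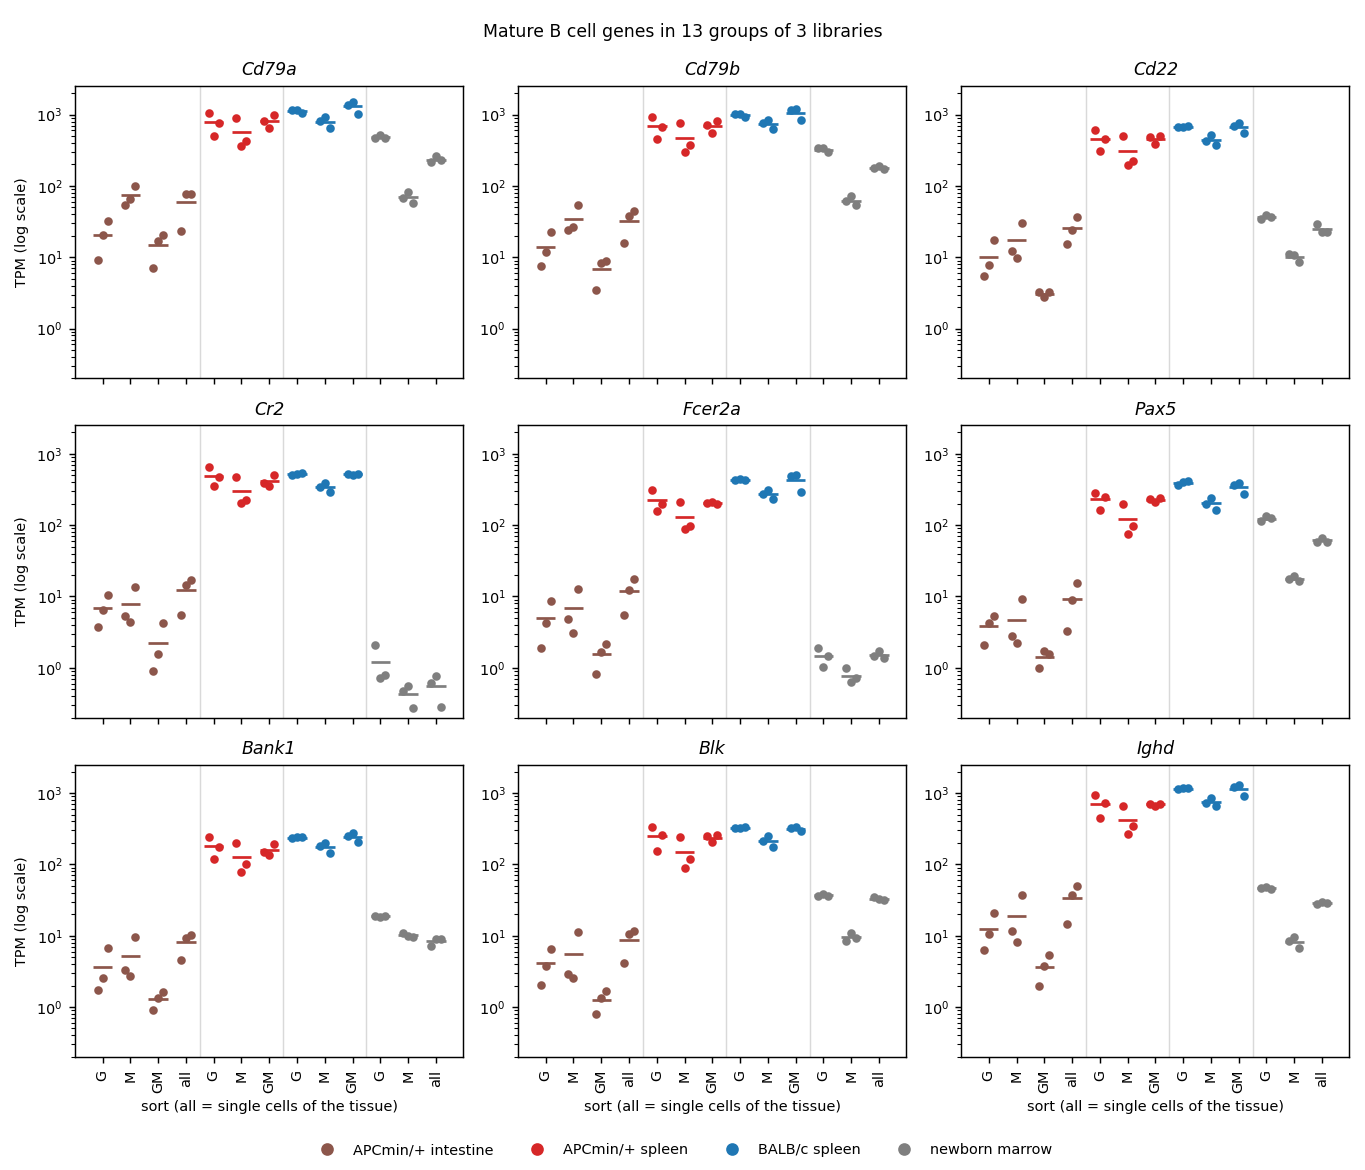
Each panel shows 1 gene, with TPM on a log axis for the 39 libraries (points) and the mean of each group of 3 (bars), by site and sort. All 9 genes are highest in spleen, and Cr2 and Fcer2a, unlike Cd79a, Cd79b and Pax5, lie near 1 TPM in newborn marrow.

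The late genes and the early genes of B cell development took different places in that order. Fcer2a, the CD23 gene, had between 0.63 and 1.87 TPM in the 9 marrow libraries, against 89.3 to 499.7 TPM in the 18 splenic ones. Cr2 had 0.27 to 2.08 TPM in marrow and 204 to 646 TPM in spleen. As a percentage of Cd79a TPM, Cr2 averaged 0.365% ± 0.217 in marrow (SD, n = 9 libraries) and Fcer2a 0.700% ± 0.414. Pax5, the commitment factor, stood at 25.8% ± 1.41 of Cd79a in marrow, between its 27.0% ± 4.82 in APCmin/+ spleen and 12.97% ± 6.32 in intestine (n = 9 and 12). Cd79b, the partner of Cd79a, stood at 77.9% ± 11.2 in marrow and 85.5% ± 3.04 in APCmin/+ spleen. Ighd stood at 11.3% ± 1.44 of Cd79a in marrow, against 84.6% ± 10.7 in APCmin/+ spleen and 95.0% ± 8.28 in BALB/c spleen. Marrow Ighd was thus low beside the receptor chain, yet 6.80 to 48.4 TPM, above the marrow range of Cr2 and Fcer2a. These proportions are descriptions, and the strains and ages of the mice differ between the sites as well.

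Precursor B cell genes followed the marrow values. The 10 genes of that list, which includes the surrogate light chain and recombinase genes, summed in marrow to 2472 ± 141 TPM for G sorts, 282 ± 41.5 for M sorts and 742 ± 89.0 for single cells (SD, n = 3 each). In the splenic groups the list averaged between 63.6 ± 13.9 and 108 ± 38.1 TPM. Follicular dendritic cell genes, of which 4 of 5 are in the table, summed to 1.84 to 3.78 TPM in APCmin/+ spleen and 4.77 to 11.2 TPM in BALB/c spleen. In the intestinal libraries they summed to 117 to 373 TPM. The part of these cells in the Cr2 values was not tested. The sorts themselves carried neutrophil genes, at 5753 to 140141 TPM in spleen and 126266 to 148039 in marrow, but only 36.7 to 778 TPM in intestine.

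The first comparison asked whether the genes differed between APCmin/+ and BALB/c spleen within each sort. All 9 had a lower mean in APCmin/+ spleen in each of the G, M and GM sorts, and 1 of them, Fcer2a, passed the test, in the M sort. A call needed an adjusted p under 0.05 and a 2-fold change in limma's test on log2(TPM + 1), adjusted over 18466 genes. In the M sort Fcer2a had 209, 89.3 and 96.7 TPM in APCmin/+ libraries, against 278, 315 and 229 TPM in BALB/c libraries. The highest APCmin/+ library lay below the lowest BALB/c one. The log2 difference was -1.15 ± 0.40 (SE, adjusted p = 0.0223). This was 1 of 9 genes, where 5.97% of all genes tested were called lower.

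In the G sort Fcer2a had 315, 158 and 201 TPM in APCmin/+ libraries, against 436, 439 and 435 TPM in BALB/c libraries, with no overlap (-1.01 ± 0.40, adjusted p = 0.0515). In the GM sort APCmin/+ libraries had 201, 208 and 197 TPM of Fcer2a, against 483, 499.7 and 291 TPM in BALB/c libraries, again with no overlap (-1.03 ± 0.40, adjusted p = 0.0544). None of the 9 genes passed in these sorts, where limma called 5.77% (G) and 5.39% (GM) of all genes lower. At an unadjusted p under 0.05, for which the share of all genes was not counted, there were 2 (Fcer2a and Pax5) in the G sort and 1 (Fcer2a) in the GM sort. Averaged over the 3 sorts, Fcer2a differed by -1.06 ± 0.23 (adjusted p = 0.000247), again 1 of 9, with 5.25% of all genes called lower. The call in the M sort was lost without APCmin/+ M library 2 (-0.93) or 3 (-0.99), without BALB/c M library 1 (-1.14) or 2 (-1.04), and on rescaling by median ratio (-0.97). Without APCmin/+ M library 1, which is high in all 9 genes, 6 genes were called lower. The mean of the 3 sorts lost its call without APCmin/+ G library 2 or M library 2 (-0.99 each) and on rescaling (-0.89). Fcer2a gained a call in the G sort without APCmin/+ G library 1 (-1.29) and in the GM sort without BALB/c GM library 3 (-1.28). Fitting only the groups compared ended the call in the M sort and made 1 in the GM sort.

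The other 8 genes differed less. Ighd had log2 differences of -0.76 (G), -0.92 (M) and -0.70 (GM), Pax5 of -0.80, -0.82 and -0.56, and Cd79a of -0.58, -0.60 and -0.69. Cr2 differed least, by -0.15 ± 0.39 in G, -0.30 ± 0.39 in M and -0.34 ± 0.39 in GM, and in G it turned to 0.056 on rescaling and to 0.065 without APCmin/+ G library 2. Cr2 had 646, 351 and 474 TPM in APCmin/+ G libraries, against 511, 529 and 547 TPM in BALB/c G libraries, so that the highest value of all belonged to APCmin/+. The medians over the 9 genes were -0.60 (G), -0.63 (M) and -0.61 (GM), beside -0.15, -0.14 and -0.12 over all genes tested. Rescaling the libraries by median ratio brings those medians of all genes close to 0.

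**Figure D2:**
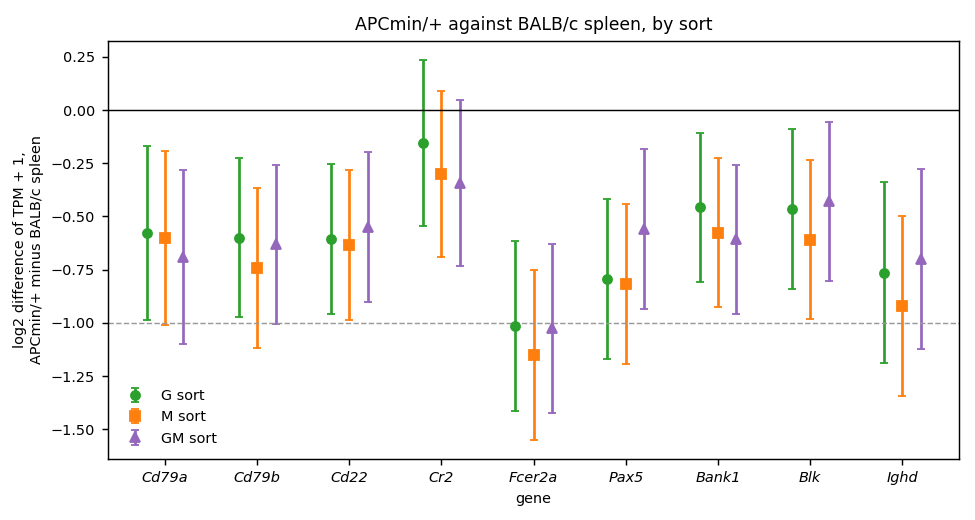
For each gene and sort, the point is the log2 difference of TPM + 1, APCmin/+ minus BALB/c spleen, and the bar is ± 1 standard error. The dashed line marks a 2-fold lower level. All points lie below 0, Fcer2a near -1 and Cr2 nearest to 0.

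Few genes of other B cell lists were called between the 2 kinds of spleen, although their medians were below 0. Of 20 B cell receptor signalling genes none was called in any of the 3 sorts, with medians of -0.23 (G), -0.40 (M) and -0.26 (GM). Of 13 B cell transcription factors, 1 was lower in G, 3 in M and none in GM, with medians of -0.60, -0.60 and -0.47. Of 14 surface and homing genes, 1 was higher and 2 lower in M, and none was called in G or GM, with medians of -0.59 (G), -0.56 (M) and -0.59 (GM). Genes of other cells moved with the comparison. Over all genes tested, 3.10% (G), 5.51% (M) and 3.61% (GM) were called higher, and 5.77%, 5.97% and 5.39% lower. Of 12 neutrophil genes, 3 were higher in G, 11 in M and 4 in GM, with none lower, and the list summed to 26310 to 140141 TPM in APCmin/+ libraries of all sorts, against 5753 to 27839 in BALB/c libraries. Of 9 erythroid genes, 4 were higher in G, 6 in M and 7 in GM. Of 9 monocyte genes, 7 were lower in the M sort. Of 13 plasma cell genes, 1 was higher in G, 3 were lower in M and 1 was higher in GM. The higher one was Igha, the constant region of IgA, named here after its values were seen. Igha averaged 3523 ± 1649 TPM in APCmin/+ against 615 ± 390.2 in BALB/c G sorts (2.68 ± 0.64, adjusted p = 0.00194), a call lost when only those groups were fitted. It averaged 3600 ± 1891 TPM in APCmin/+ against 408 ± 111 in BALB/c GM sorts (3.03 ± 0.64, adjusted p = 0.000669). The part of these other cells in the lower B cell values, or in the ratios to Cd79a given next, was not tested.

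Ratios between members of the set do not carry a common share of B cell RNA, and they were compared next. Relative to Cd79a, Cr2 was higher and Fcer2a was lower in APCmin/+ spleen. Cr2 stood at 56.0% ± 6.71 of Cd79a TPM in APCmin/+ libraries and 43.8% ± 5.86 in BALB/c libraries (SD, n = 9 each). Fcer2a stood at 26.0% ± 4.13 in APCmin/+ libraries and 35.2% ± 3.70 in BALB/c libraries. Tested on the log2 scale with labels exchanged within each sort, the ratio of Cr2 differed by 0.36 ± 0.07 (SE, 1.28-fold, exact permutation p = 0.0005, two-sided). That of Fcer2a differed by -0.44 ± 0.08 (0.737-fold, exact permutation p = 0.0005, two-sided). The smallest p that the 8000 arrangements allow is 0.00025, and 8 ratios were tested. These arrangements treat the sorts as independent, while equally numbered G and M libraries of APCmin/+ spleen deviate together, so that the p-values may be too small. When each of the 18 libraries was left out in turn, the Cr2 difference stayed between 0.32 and 0.42 and the Fcer2a difference between -0.50 and -0.39.

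Within sorts the separation was close to complete. Cr2 ran from 60.6% to 69.5% of Cd79a in the APCmin/+ G sort against 44.5% to 51.9% in the BALB/c G sort, and from 51.9% to 55.5% in the APCmin/+ M sort against 41.8% to 45.0% in the BALB/c M sort. In the GM sort it ran from 47.3% to 54.3% in APCmin/+ libraries and from 33.6% to 50.9% in BALB/c libraries, which overlap. Set directly against each other, Fcer2a was 39.5% to 59.3% of Cr2 in APCmin/+ libraries and 55.8% to 97.8% in BALB/c libraries. The 2 ranges overlapped only by APCmin/+ GM library 2, at 59.3%, and BALB/c GM library 3, at 55.8%. The G sort had 48.8%, 45.0% and 42.4% in APCmin/+ libraries, against 85.3%, 82.8% and 79.6% in BALB/c libraries.

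The other ratios moved less. Ighd relative to Cd79a differed by -0.17 ± 0.06 (exact permutation p = 0.017, two-sided), with overlap between libraries, and ran from -0.21 to -0.13 with each library left out in turn. Cd79b differed by -0.03 ± 0.02, Cd22 by 0.03 ± 0.03, Pax5 by -0.10 ± 0.06, Bank1 by 0.08 ± 0.04 and Blk by 0.12 ± 0.06, with exact permutation p-values between 0.0655 and 0.4725. Cd79b, the partner of Cd79a in 1 complex, had the smallest error of these ratios.

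**Figure D3:**
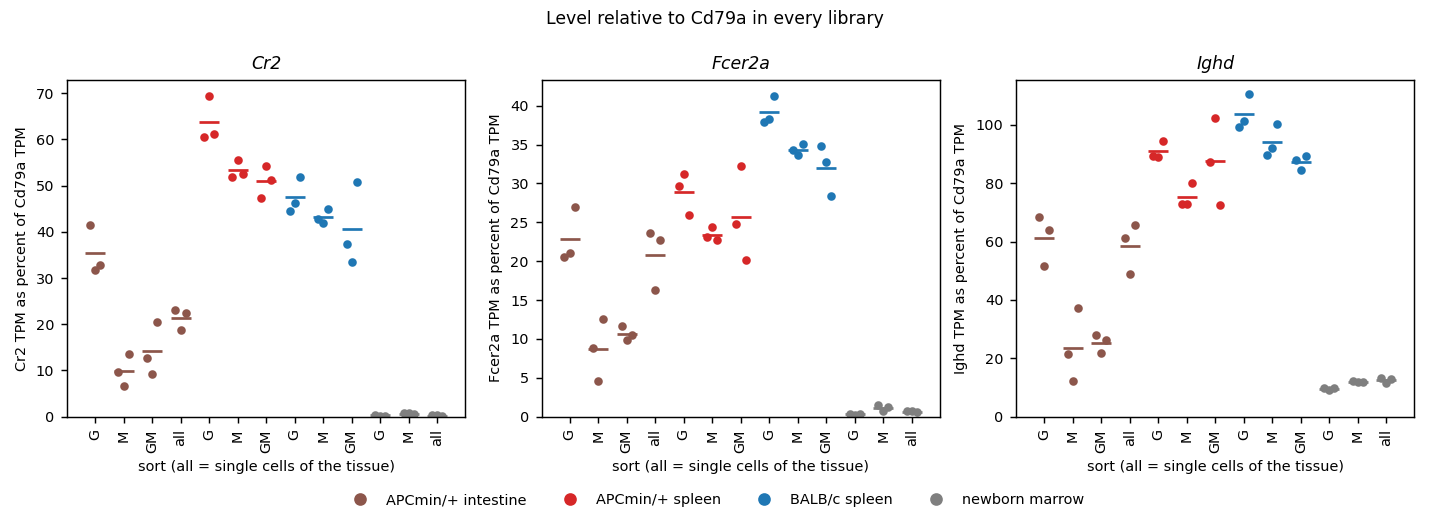
TPM of Cr2, Fcer2a and Ighd as a percentage of Cd79a TPM in the same library, with points for libraries and bars for group means. In the G and M sorts of spleen, Cr2 lies higher and Fcer2a lower in APCmin/+ than in BALB/c libraries, and all 3 genes are low beside Cd79a in marrow.

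Genes known from marginal zone B cells, which carry much CD21 and little CD23, were examined beside these ratios. Of the 7 genes of that list, 2 were higher in APCmin/+ spleen in G (3.10% of all genes tested), 1 in M (5.51%) and 2 in GM (3.61%), and none was lower. The 2 were Cd9, a tetraspanin, and Myof, a membrane repair protein, the second named here after its values were seen. Cd9 averaged 178 ± 61.7 TPM in APCmin/+ and 80.0 ± 3.96 in BALB/c G sorts (1.08 ± 0.21, adjusted p = 0.00029), and 148 ± 51.0 in APCmin/+ against 37.0 ± 2.95 in BALB/c M sorts (1.91 ± 0.21, adjusted p = 4.04e-08). In GM sorts Cd9 averaged 166 ± 33.4 TPM in APCmin/+ against 80.9 ± 11.2 TPM in BALB/c libraries (1.01 ± 0.21). Its call was lost in G without APCmin/+ library 2 (0.85) or when only those groups were fitted, and in GM without any of 4 single libraries (0.90 to 0.96). Myof averaged 32.7 ± 8.27 TPM in APCmin/+ against 12.5 ± 0.766 TPM in BALB/c G sorts (1.29 ± 0.28), but 31.3 ± 14.2 in APCmin/+ against 49.1 ± 9.73 in BALB/c M sorts (-0.73 ± 0.28, not called). Cd1d1, which presents lipids and is high on marginal zone B cells, had 102 ± 40.2 TPM in APCmin/+ and 140.2 ± 10.4 in BALB/c G sorts (-0.53 ± 0.31, adjusted p = 0.208). Cd9 and Myof are also made by cells other than B cells. Over the splenic libraries, Pearson's r with the mean of the mature B cell genes was -0.437 for Cd9 and -0.376 for Myof. It was 0.857 for S1pr3, 0.810 for Cd1d1, 0.772 for Dtx1, 0.137 for Fcrl5 and -0.0091 for Notch2. In G sorts S1pr3 (-0.16 ± 0.28) and Dtx1 (-0.02 ± 0.31) were not called. The part of other cells in the Cd9 and Myof values was not tested. The medians of the 7 genes were 0.24 (G), -0.12 (M) and 0.08 (GM). Of 7 germinal centre genes none was called in any sort.

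The next comparison set G sorts against M sorts at each site. In both kinds of spleen all 9 genes had a higher mean in the G sort, and none was called. In the APCmin/+ spleen the log2 differences ran from 0.52 (Cd79a) to 1.00 (Pax5), and the libraries of the 2 sorts overlapped for each gene. Equally numbered G and M libraries of this spleen deviate together, and in all 3 numbers the G library lay above the M library for each of the 9 genes. With the number as a block none of the 9 was called either. That block gave each number 1 effect over all APCmin/+ libraries, of spleen and intestine, and so did not test these pairs. In the BALB/c spleen the log2 differences ran from 0.43 (Cd79b) to 0.98 (Pax5), and for all 9 genes the 3 G libraries lay above the 3 M libraries. The share of all genes that separate so, or lie above in all 3 numbers, was not counted. Limma called 0.579% of all genes higher in the APCmin/+ G sort and 1.71% in the BALB/c G sort. At an unadjusted p under 0.05 there were 3 of the 9 in APCmin/+ spleen (Fcer2a, Pax5 and Blk) and 1 in BALB/c spleen (Pax5). The share of all genes at this looser threshold was not counted. Without APCmin/+ M library 1, 4 genes were called in APCmin/+ spleen, and without APCmin/+ G library 2, 1 was. Rescaling called 2 genes (Fcer2a and Pax5) in APCmin/+ spleen and 1 (Pax5) in BALB/c spleen.

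The difference between G and M sorts was itself compared between the 2 kinds of spleen. It was larger in APCmin/+ spleen by 0.02 to 0.16 on the log2 scale, with standard errors of 0.50 to 0.60, and no gene was called, where 1.08% of all genes were in either direction. No gene reached an unadjusted p under 0.05 in limma. The intervals are wide: for Pax5 the difference of differences was 0.02 ± 0.53. The monocyte list, with 9 genes, had 8 called lower in G than in M sorts in each kind of spleen, 9 in marrow and 3 in intestine. Of all genes tested 2.76% were called lower in intestine, and that share is not given here for the other sites.

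In newborn marrow 6 of the 9 genes were higher in the G sort, where 6.89% of all genes tested were. Cd79a had the 475, 525 and 470.2 TPM in G libraries and 68.4, 81.2 and 57.1 TPM in M libraries given above, with no overlap, a log2 difference of 2.82 ± 0.41 (adjusted p = 2.71e-06). Pax5 averaged 123.5 ± 8.97 TPM in G against 17.7 ± 1.54 in M libraries (2.74 ± 0.38), Cd79b 324 ± 20.1 in G against 62.2 ± 9.40 in M libraries (2.37 ± 0.37), and Ighd 46.6 ± 1.56 in G against 8.24 ± 1.36 in M libraries (2.38 ± 0.42). Blk (1.84) and Cd22 (1.76) were called as well. Cr2 (0.57), Fcer2a (0.46) and Bank1 (0.81) were not called, the first 2 at levels near 1 TPM. Bank1 averaged 18.6 ± 0.491 TPM over G libraries and 10.2 ± 0.701 over M libraries, without overlap. All 10 precursor B cell genes were higher in the marrow G sort, with Vpreb1 of the surrogate light chain at 579 TPM in G against 57.6 TPM in M libraries and Igll1, its partner, at 760.4 TPM in G against 78.4 TPM in M libraries. Of 13 B cell transcription factors, 9 were higher and 1 lower.

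In the APCmin/+ intestine the direction of the means was the reverse. All 9 genes had a lower mean in the G sort than in the M sort, and 2 were called lower, where 2.76% of all genes were. The medians of Cr2, Pax5 and Blk were higher in G libraries (6.42, 4.18 and 3.80 TPM) than in M libraries (5.33, 2.75 and 2.94 TPM). For these genes M library 3 had the highest value of either sort (13.7, 9.27 and 11.3 TPM). Cd79a had 9.13, 20.3 and 32.2 TPM in G libraries against 54.6, 66.5 and 101 TPM in M libraries, with no overlap (-1.92 ± 0.41, adjusted p = 0.00266). Cd79b averaged 13.9 ± 7.62 TPM across G libraries and 34.7 ± 16.9 across M libraries, also without overlap (-1.28 ± 0.37, adjusted p = 0.0341). Leaving out M library 3 (-0.92) or either of G libraries 1 (-0.94) and 2 (-1.25) ended the Cd79b call, and neither gene was called when only the 2 groups were fitted. The other 7 overlapped between sorts and ran from -0.70 (Cd22) to -0.09 (Pax5). Plasma cell genes moved with these values. Of 13 plasma cell genes 8 were lower in the G sort, among them Jchain, the joining chain of secreted IgA, at 382 TPM in G against 4948 TPM in M libraries. The list, which includes immunoglobulin genes, summed to 4641 to 10738 TPM in G libraries and 91112 to 125709 TPM in M libraries. The part of plasma cells in the Cd79a and Cd79b values was not tested.

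In the intestinal M sort the proportions between members also stood apart. Cr2 was 35.4% ± 5.37 of Cd79a in G libraries and 9.95% ± 3.51 in M libraries (SD, n = 3 each). Ighd was 61.4% ± 8.68 in G libraries and 23.6% ± 12.6 in M libraries. The GM sort, with 14.1% ± 5.69 for Cr2 and 25.4% ± 3.24 for Ighd, lay nearer to the M sort, and single cells of intestine had 21.4% ± 2.27 and 58.6% ± 8.77. These are descriptions of 3 libraries each at low TPM, and were not tested.

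The difference between G and M sorts was also compared between sites, in comparisons added after the values were seen. Set against intestine, marrow had a higher G minus M difference for 6 of the 9 genes (8.24% of all genes tested), and APCmin/+ spleen for 3 (3.60%), Cd79a, Cd79b and Cd22. Cr2, Fcer2a and Bank1 were not called in either, with values between 0.67 and 1.21 on the log2 scale. The spleen count ran from 2 to 6 with each library left out, with 6 without APCmin/+ spleen M library 1 and 5 without intestinal G library 3 or M library 2, and was 8 on rescaling and 0 when only those groups were fitted.

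**Figure D4:**
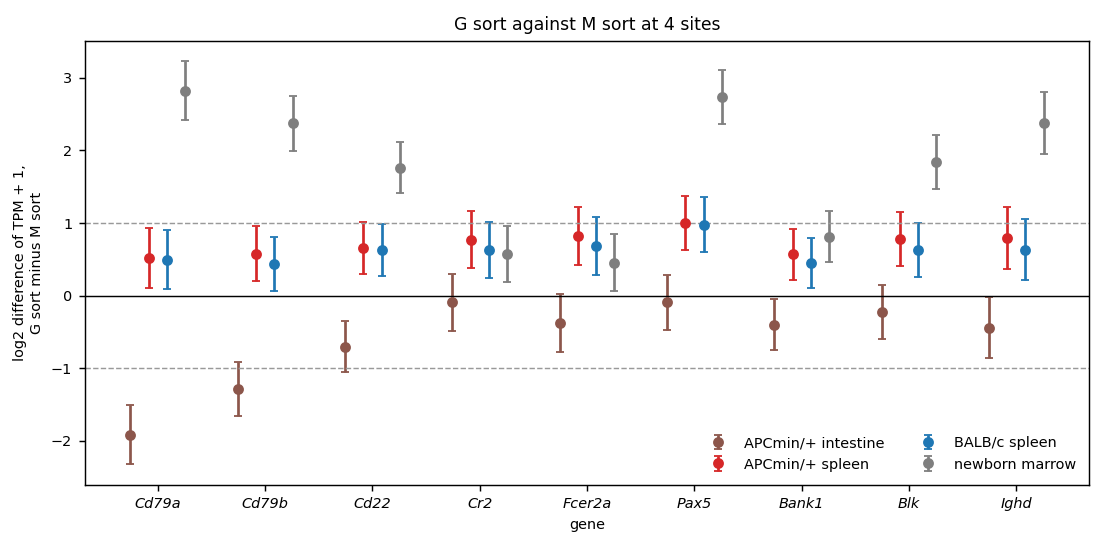
For each gene, the point is the log2 difference of TPM + 1, G sort minus M sort, at each of 4 sites, and the bar is ± 1 standard error. Dashed lines mark a 2-fold change. Marrow points lie highest for 7 of the genes, both spleens lie between 0 and 1, and intestine lies below 0.

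Intestinal sorts were then set against splenic sorts of the same APCmin/+ genotype. All 9 genes were lower in intestine in each of the 3 sorts, without overlap. In the G sort the log2 differences ran from -6.00 (Cr2) to -5.28 (Cd79a), where 22.2% of all genes were called lower. In the M sort they ran from -5.14 (Cr2) to -2.85 (Cd79a), where 25.7% were. In the GM sort they ran from -7.28 (Ighd) to -5.78 (Cd79a), where 19.9% were. The medians over all genes tested were -0.16 (G), -0.43 (M) and -0.15 (GM), and rescaling brings them close to 0. Cd79a differed least in all 3 sorts. Cr2 had 3.79, 6.42 and 10.6 TPM in intestinal G libraries, against 646, 351 and 474 TPM in splenic G libraries. Neutrophil genes were low in intestine as well, at 49.3 to 778 TPM in the G libraries.

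Sorted cells were compared with single cells of the same tissue. In marrow, 3 genes were higher in the G sort than in single cells (9.65% of all genes tested): Cd79a (1.06 ± 0.41, adjusted p = 0.0299), Pax5 (1.00 ± 0.38) and Bank1 (1.06 ± 0.35). All 3 lay close to the 2-fold limit, and without marrow single-cell library 1 none was called, while 1 was without single-cell library 3, G library 2 or G library 3. In the marrow M sort 6 genes were lower than in single cells (11.2% of all genes), from -1.21 (Cd22) to -1.76 (Cd79a), and Cr2, Fcer2a and Bank1 were not called. Bank1 alone had a positive difference, 0.25 ± 0.35. Bank1 had 10.99, 9.90 and 9.68 TPM in M libraries against 7.27, 9.07 and 9.00 TPM in single cells, without overlap.

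In the intestine, 6 genes were lower in the G sort than in single cells (5.23% of all genes), from -1.46 (Cd79a) to -1.04 (Bank1), and all 9 overlapped between the groups. That count fell to 0 without single-cell library 3 or G library 1, to 1 without single-cell library 2 and to 2 without G library 2. In the M sort none was called, where 3.68% of all genes were lower and 0.742% higher. Pax5 and Ighd had an unadjusted p under 0.05 in that sort, a threshold whose share over all genes was not counted. There 5 genes were called lower without single-cell library 1 and 7 without M library 3. In the GM sort all 9 were lower than in single cells (3.23% of all genes), without overlap, from -2.80 (Ighd) to -1.86 (Cd79a). Fitting only the groups compared called none of them in the G or the GM sort.

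Within the spleen the 9 genes varied together from library to library. The correlation of log2(TPM + 1) of each gene with the mean of the other 8 over the 18 splenic libraries is given as a description, since the genes were chosen as B cell genes and equally numbered APCmin/+ libraries deviate together. Pearson's r ran from 0.906 (Cr2) to 0.996 (Cd22), and Spearman's rho from 0.864 (Cr2) to 0.988 (Cd22). Without the 2 libraries farthest from the median, APCmin/+ M libraries 2 and 3, r ran from 0.774 (Cr2) to 0.991 (Cd22). Within the 9 APCmin/+ libraries r was 0.964 to 0.994, and within the 9 BALB/c libraries 0.918 to 0.997. Spearman's rho was lower there, from 0.767 (Fcer2a) to 0.983 in APCmin/+ and from 0.583 (Cr2) to 0.983 in BALB/c libraries. On deviations from the 6 group means r was 0.924 (Fcer2a) to 0.993 (Cd22). Cr2 and Fcer2a were thus the loosest of the 9 over all libraries, and Cr2 had 0.972 within APCmin/+ spleen but the lowest value, 0.918, within BALB/c spleen.

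Over the 36 pairs r had a median of 0.959, with a lowest value of 0.800 and a highest of 0.992. The span between the lowest and the highest splenic library was widest for Fcer2a (89.3 to 499.7 TPM, 5.60-fold) and Pax5 (75.1 to 412 TPM, 5.49-fold). It was narrowest for Cr2 (204 to 646 TPM, 3.17-fold) and Bank1 (77.1 to 272 TPM, 3.53-fold).

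**Figure D5:**
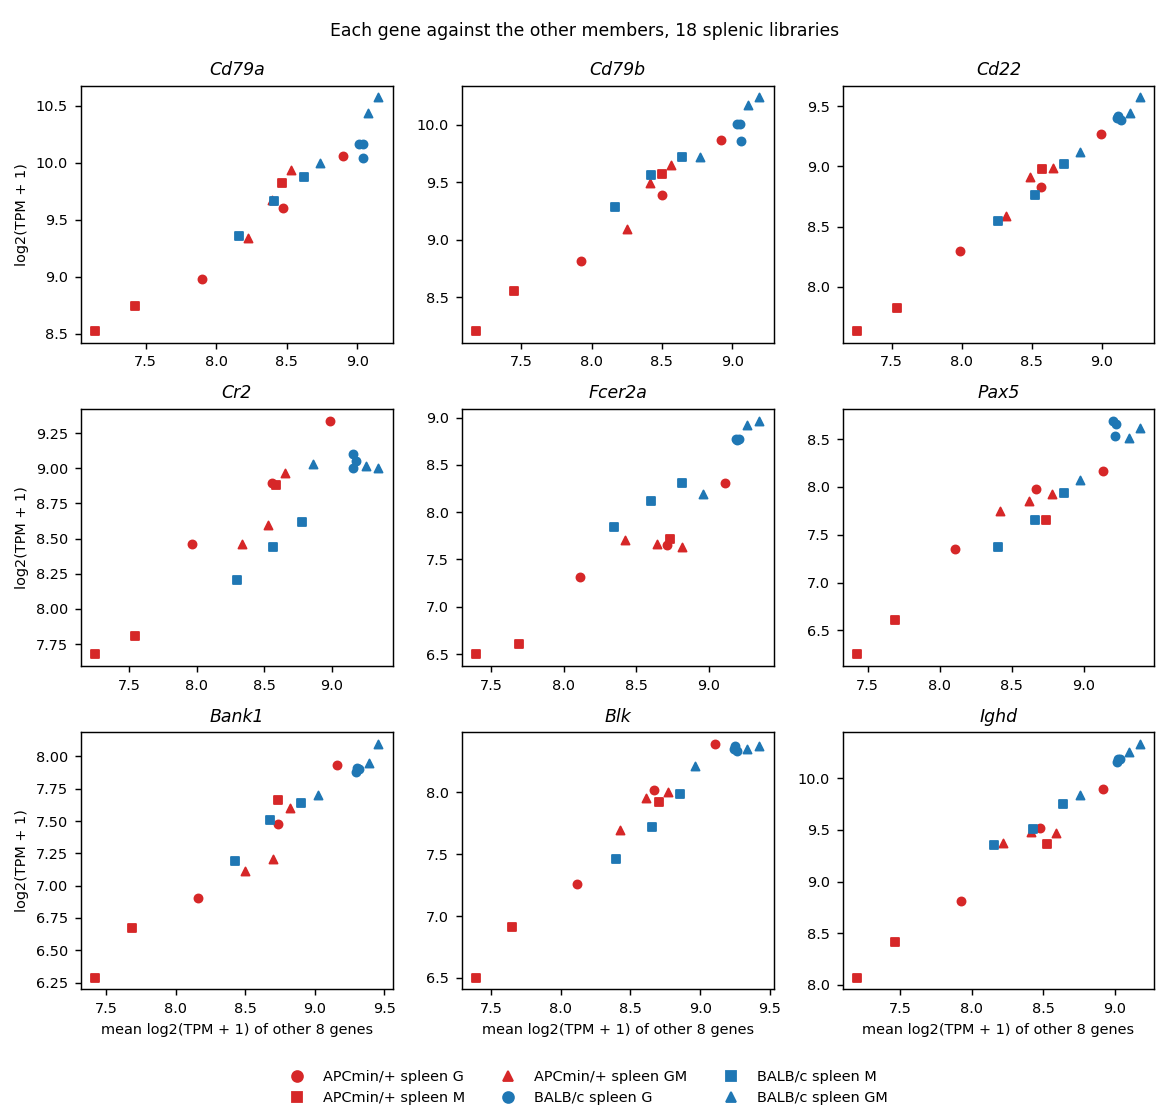
Each panel plots log2(TPM + 1) of 1 gene against the mean log2(TPM + 1) of the other 8 in the 18 splenic libraries, by kind of mouse (colour) and sort (shape). Points follow 1 line for most genes, while in the Cr2 and Fcer2a panels APCmin/+ and BALB/c libraries lie to either side of a common line.

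Genes of other cells were set against the mean of the 9 in the same way, within each kind of mouse. With the 12 neutrophil genes r was -0.776 in the 9 APCmin/+ libraries and 0.807 in the 9 BALB/c libraries, opposite in sign. The 9 monocyte genes gave -0.442 in APCmin/+ and -0.897 in BALB/c libraries, and the 13 plasma cell genes gave 0.665 and -0.850. The plasma cell list holds Igkc and Ighm, immunoglobulin genes that B cells express as well, at means of 27168 and 14757 TPM in spleen. In BALB/c spleen the 3 M libraries were low both in the 9 genes and in neutrophil genes. On deviations from the 6 group means, r with neutrophil genes was -0.899, with monocyte genes 0.0880 and with plasma cell genes 0.446. In the APCmin/+ G sort the 9 genes summed to 5393, 2660 and 3991 TPM and the neutrophil genes to 26310, 140141 and 61905 TPM. The 9 erythroid genes gave -0.305 in APCmin/+ and -0.481 in BALB/c libraries, and -0.637 over all 18 splenic libraries. On deviations from the group means they gave -0.134. Over all 18 the neutrophil genes gave -0.494, the monocyte genes -0.398 and the plasma cell genes 0.302.

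The genes most like the 9 were found among 9727 other genes with a mean of at least 5 TPM in spleen, by Pearson's r with the mean of the 9 over the 18 splenic libraries. Among the 10 most alike were Fcrl1 (0.996), Ralgps2 (0.992), Ikzf3 (0.9899), Siglecg (0.987), Ptp4a3, Blnk, Rabep2, Cd72 and Jakmip1 (0.983). Fcrl1 and Cd72 are surface proteins of B cells, Blnk an adaptor of antigen receptor signalling, and Ikzf3 a lymphoid transcription factor. Over the 13 group means the most alike of 10636 genes were Ms4a1 (0.998), which encodes CD20, Srpk3 (0.995), Ikzf3 (0.994), H2-Oa (0.994) and S1pr1 (0.994). Ikzf3 alone was in both. The median r in spleen was 0.919 for 14 surface and homing genes, 0.890 for 13 B cell transcription factors and 0.659 for 20 receptor signalling genes, beside 0.171 for all genes ranked. The lowest single r in these 3 lists was -0.514, -0.013 and -0.014 in turn. The median was 0.137 for 7 marginal zone, -0.270 for 3 germinal centre and -0.114 for 3 precursor B cell genes that were ranked. Those 3 precursor genes lay far apart, with Vpreb3 at 0.911, Lef1 at -0.114 and Il7r at -0.412. The median was 0.392 for 10 plasma cell genes, with the immunoglobulin genes of that list left out here. It was -0.534 for 12 neutrophil genes and -0.608 for 9 erythroid genes.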

How the data were processed

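Polyadenylated RNA of 39 mouse samples was sequenced. Per the labels' protocols, Trizol took up the sorted cells, a stranded TruSeq mRNA kit gave the libraries, and a NextSeq 500 read 75 bases from 1 end. Per the submitters' processing notes, bcl2fastq 2.18, STAR 2.6.1c, RSEM and mm10 were used. No source used here gives the RSEM version or the gene annotation. The authors deposited gene-level TPM from RSEM, which keep no read counts, so depth and counting error are unknown.

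Genes reaching 1 TPM in 3 or more libraries (18466 of 53465) were analysed as log2(TPM + 1). Differences are on that scale, which understates the change of low genes. They were tested with limma 3.58.1 (R 4.3.3) in a model of the 13 group means over all 39 libraries, with a variance trend, 26 residual degrees of freedom and Benjamini-Hochberg adjustment over the 18466 genes. A call needed an adjusted p under 0.05 and a 2-fold change. Overlap between libraries and unadjusted p under 0.05 were read for named genes only, and their share over all genes was not counted. Of 19 comparisons, 2 (G against M sorts, marrow against intestine and APCmin/+ spleen against intestine) were added after the values were seen. Ratios were tested by exact permutation within sorts. On simulated data with log2 changes of 1.5 or 2 in 200 of the 18466 genes, the APCmin/+ against BALB/c G sort comparison recovered 98% of each size, with 3 false calls.

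The members and the 12 other gene lists (131 genes, 130 in the table) were chosen with earlier results of these data known. Named genes are all members, from each list up to 4 genes of highest splenic TPM, and the 10 and 5 most alike genes, without provisional symbols or immunoglobulin and T cell receptor segments. The text names a subset, and 1 of the most alike genes is not reported here.

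Equal replicate numbers pair the samples where all correlations of deviations from group means pass 0.1. This held in APCmin/+ spleen between G and M sorts (0.555, 0.375 and 0.404), in intestine between G and M sorts (0.599, 0.432 and 0.562), and for GM against single cells in intestine (0.643, 0.59 and 0.628). The pairing is read from the data, as no label explains the numbers. Alternatives were a pseudocount of 0.1, no filter, rescaling by the median ratio over 6908 genes, a fit of only the groups compared, the replicate number as a block, and each library left out in turn. The block shared its effects over all libraries of a kind of mouse, whatever the tissue or sort. Python 3.11.15 with pandas 2.3.3, numpy 2.4.6, scipy 1.17.1 and matplotlib 3.10.9 was used for the rest.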

Additional observations from a re-analysis of the deposited data

Results flagged for a closer look

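The difference between G and M sorts was not the same at all sites. In these comparisons, added after the values were seen, G minus M in marrow was set against G minus M in APCmin/+ intestine. Of the 9 genes 6 were called higher, where 8.24% of all genes were: Cd79a by 4.74, Pax5 by 2.83, Ighd by 2.82, Cd79b by 3.66, Cd22 by 2.46 and Blk by 2.06 on the log2 scale. Cd79a was higher in the marrow G sort and lower in the intestinal G sort. Age, strain and genotype differ between these sites as well.

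G minus M in APCmin/+ spleen was set against G minus M in APCmin/+ intestine in the same way. It was higher for Cd79a by 2.43 (adjusted p = 0.00305), for Cd79b by 1.86 (adjusted p = 0.0109) and for Cd22 by 1.36 (adjusted p = 0.045), 3 of 9 where 3.60% of all genes were. The Cd22 call was lost without any of 7 single libraries of the 12, with values of 0.89 to 1.34.

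In BALB/c spleen every G library lay above every M library for Cd79a and Cd79b, and in APCmin/+ intestine every G library lay below every M library. The log2 differences of G minus M were apart by 2.41 for Cd79a and 1.72 for Cd79b. This difference was not tested.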

How the results depend on the processing

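Counts are of the 9 genes called in a comparison. With the replicate number as a block, the count in APCmin/+ against BALB/c G sorts was 1 instead of 0 (Fcer2a, adjusted p = 0.049), and no other count moved by over 1.5 times. Those numbers do not pair the samples. Rescaling changed APCmin/+ against BALB/c M sorts and the mean of 3 sorts from 1 to 0, G against M sorts to 1 in BALB/c and 2 in APCmin/+ spleen, and the added spleen against intestine contrast from 3 to 8. It turned Cr2 in APCmin/+ against BALB/c G sorts to 0.056. Fitting only the groups compared gave 0 in APCmin/+ against BALB/c M sorts, intestinal G against M sorts (main 2), intestinal G (main 6) and GM (main 9) sorts against single cells and the spleen against intestine contrast, and 1 in APCmin/+ against BALB/c GM sorts. Without a filter intestinal G against M sorts had 1. A fit of fewer groups has fewer residual degrees of freedom, and the cause of the other changes was not tested.

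With each library left out in turn, counts in APCmin/+ against BALB/c spleen ran from 0 to 1 (G), 0 to 6 (M), 0 to 1 (GM) and 0 to 1 (mean of 3 sorts). G against M sorts ran from 0 to 4 in APCmin/+ spleen and 1 to 2 in intestine. Sorts against single cells ran from 0 to 3 (marrow G), 0 to 9 (intestinal G) and 0 to 7 (intestinal M), and the spleen against intestine contrast from 2 to 6. Of 6 cell type lists, 1 (erythroid) correlated with the 9 genes over the 18 splenic libraries at an adjusted p under 0.05, and 0 to 2 did with libraries left out. That permutation test exchanged libraries across groups. The erythroid r was -0.637 over all libraries but -0.134 on deviations from the group means. Cr2 in APCmin/+ against BALB/c G sorts ran from -0.37 to 0.065, the last without APCmin/+ library 2. Of 2184 single-gene or single-list alternatives, 2051 kept direction and side of the threshold, 107 lost a call, 24 gained one and 2 reversed. Unknown depth limits the values near 1 TPM.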
